A study of Mus musculus with 12 samples.

Results

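The comparison was that of IOX2 with vehicle in 4T1 tumours of mice kept at ambient altitude. It took 3 tumours given IOX2 (MI1 to MI3) and 3 given vehicle (MC1 to MC3), which are 6 of the 12 RNA-seq libraries of the series. A gene was tested when it had at least 10 counts in at least 3 of these 6 libraries, which left 14831 of 35434 genes in the table. 4T1 is a mouse mammary carcinoma line that grows in BALB/c mice with an intact immune system. Each library came from the tumour of a different female BALB/c mouse, 6 to 8 weeks old, with 4T1 cells injected under the skin of the back. The groups MC and MI stayed at about 1500 m, and MI received IOX2 at 10 mg/kg into the peritoneum each day for 10 days from day 9 after inoculation, while MC received vehicle. The other 6 libraries came from tumours of mice in a low-pressure chamber set to 3500 m, given vehicle (HC) or the same IOX2 course (HI), and all tumours were taken on study day 22. The whole tumour was the sample, so each library mixes cancer cells with blood, stroma and immune cells, and the injected cells are 1 line.

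IOX2 inhibits PHD2, the product of Egln1, an enzyme that uses oxygen, iron and 2-oxoglutarate to hydroxylate prolines of the HIF-α proteins. Hydroxylated HIF-α is bound by VHL and destroyed. When the enzyme is blocked or oxygen is short, HIF-α persists, pairs with ARNT and raises transcription of genes for glycolysis, blood vessel growth and erythropoietin. Because this control acts on the protein, the mRNA of Hif1a is not itself a readout of it. Erythropoietin from the kidney drives the making of red cells in marrow and spleen, and reticulocytes, the young red cells in blood, still carry globin mRNA.

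Library totals of the 6 ambient tumours ran from 37913875 to 40019343 counts, and 3 counts in 1 library, the level treated as the detection floor, equal 0.0729 to 0.0866 CPM. Levels are given as CPM, counts scaled to a common library total with factors from the trimmed mean of M-values (TMM). The labelled tumour type was checked against 16 epithelial markers of 4T1, all of which were tested. Epcam, an epithelial adhesion molecule, was at 342 to 532 CPM and Krt8, a simple epithelial keratin, at 899 to 1131 CPM in the 6 tumours, while Krt5, a basal keratin, was at most 2.08 CPM. Changes are fitted log2 differences (MI minus MC) with their standard errors (SE) from edgeR's quasi-likelihood test, fitted to all 12 libraries, and a gene is called at a Benjamini-Hochberg adjusted p under 0.05 over the 14831 genes.

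The IOX2 group held 2 libraries that stood apart. In MI1, 277 genes were more than 1 log2 unit above each of the other 5 ambient libraries, and in MI3, 243 genes were, against 1 to 12 in each of the other 4. The median SD of a gene on the log2 scale was 0.20 among the MI libraries and 0.14 among the MC libraries. MI1 had the highest score in 16 of 19 cell type marker lists, a score being the mean log2 CPM of a list's tested genes relative to the mean of the 6 libraries. Transcripts of the B cell list summed to 193 CPM in MI1 and to 4.64 to 6.41 CPM in the other 5. MI3 had the highest level of the 6 for 180 of 350 zinc finger genes named Zfp, or 51.4%, against 26.2% of all genes, and its share of counts from the mitochondrial genome was 2.96%, against 1.70% to 2.14% in the others. The TMM factor of MI3 was 0.914. Among the vehicle libraries, MC3 was the highest of the 6 for 26.3% of all genes, a share like that of MI3. Without MC3, 361 genes had an unadjusted p under 0.05 with edgeR, and without MI3 705, against 1359 with all libraries. Medians of lists are given below also without MI1 or MI3 where this moves them by over 1.5 times, except for some medians within 0.02 of 0. They are not given without MC3.

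**Figure D1:**
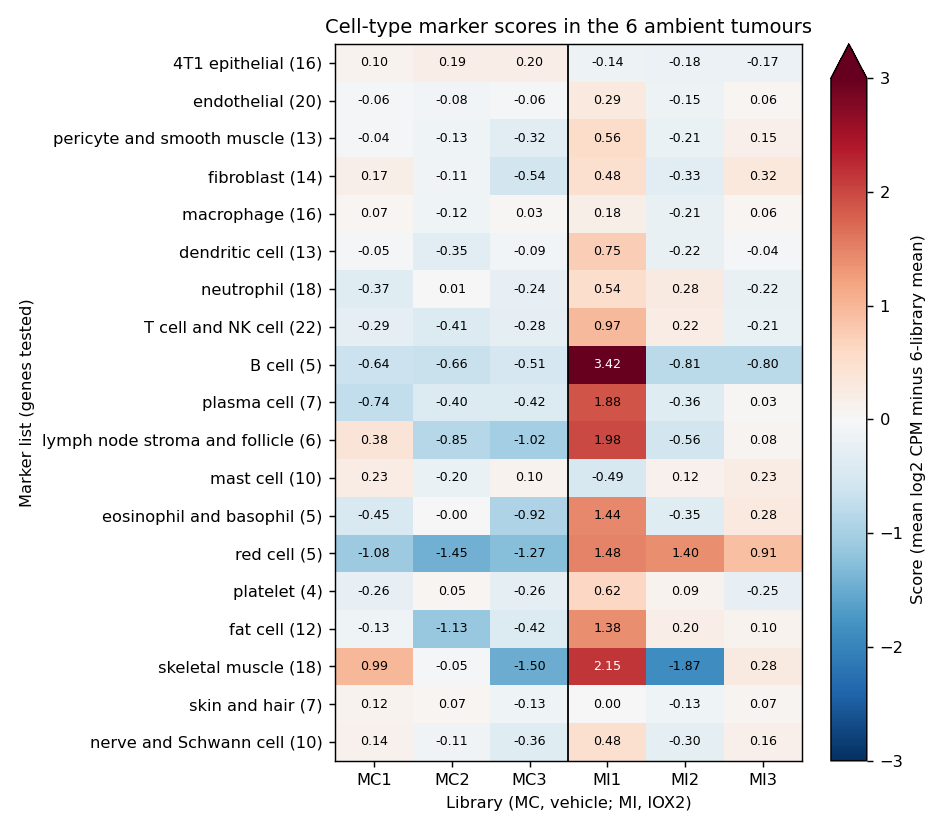
Scores of the cell type marker lists (rows, with the number of genes tested) in the 6 ambient tumours (columns, 3 MC left of the line and 3 MI right of it); colour gives the mean log2 CPM minus the mean of the 6 libraries. The red cell list is low in all MC and high in all MI libraries. Most lists, the red cell list among them, are highest in MI1, with the B cell list at 3.42 there. The T cell and NK cell, fat cell and plasma cell lists also score higher in each MI library than in each MC library.

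Adult globin genes rose in the tumours given IOX2, and they were the only genes called in this fit. With edgeR's quasi-likelihood test, 4 of 14831 genes were called higher (0.027%) and 0 lower (0%). Without adjustment, 1359 genes (9.16%) had p under 0.05 in either direction. With the DESeq2 Wald test, 18 genes were called, 16 higher and 2 lower, and the same 4 globins were among them. The 4 are Hba-a1 and Hba-a2, copies of adult α-globin, and Hbb-bs and Hbb-bt, copies of adult β-globin. Together they took 18.8 to 20.1 CPM before TMM scaling in the MC libraries and 77.8 to 118 in the MI libraries.

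Hba-a1 was at 4.94, 5.13 and 5.10 CPM in MC1 to MC3 and at 33.3, 29.97 and 23.99 CPM in MI1 to MI3. The 3 MC values lie within a narrow band far below every MI value. The log2 change was 2.52 (SE 0.27, adjusted p = 0.0184), or 5.75-fold. Hba-a2 was at 1.15, 0.603 and 1.49 CPM in MC and at 9.56, 7.72 and 7.13 CPM in MI. Its groups do not overlap either, and its log2 change was 2.91 (SE 0.36, adjusted p = 0.0255), or 7.51-fold. For both α-globin copies the highest IOX2 library was MI1 and the lowest MI3.

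Hbb-bs, the most abundant of the 4 in CPM, was at 11.28, 11.26 and 10.8 CPM in MC and at 61.7, 56.05 and 46.6 CPM in MI. Hbb-bt was at 2.21, 1.89 and 1.39 CPM in MC and at 11.9, 11.0 and 7.48 CPM in MI. Neither β-globin gene overlaps between the groups, and both have the same order of MI libraries as the α-globin genes. The log2 changes were 2.30 (SE 0.30) and 2.47 (SE 0.32), both with an adjusted p of 0.0255. Since reads can be split between near-identical copies, the copies were also summed. The α-globin sum was 5.73 to 6.58 CPM in MC and 31.1 to 42.9 CPM in MI (log2 2.60, SE 0.27, adjusted p = 0.0129), and the β-globin sum 12.2 to 13.5 and 54.1 to 73.6 CPM (log2 2.32, SE 0.29, adjusted p = 0.0398).

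The promoters of these genes and of Alas2, described next, are shown because the globins were called and Alas2 had a difference of similar size, a choice made after the values were seen. Each window is the 250 bases before the start site in the RefSeq table of build GRCm38.p6, which is C57BL/6J sequence and not that of BALB/c. The windows lie at chr11:32283422-32283671 on the plus strand (Hba-a1), chr7:103827929-103828178 on the minus strand (Hbb-bs), chr7:103813924-103814173 on the minus strand (Hbb-bt) and chrX:150547167-150547416 on the plus strand (Alas2). Capitals mark matches on either strand to the GATA core GATAA, the CACCC box CCACACCC, the CCAAT box or the TATA-like letters ATATAA, all of which were chosen after the windows had been read.
Hba-a1: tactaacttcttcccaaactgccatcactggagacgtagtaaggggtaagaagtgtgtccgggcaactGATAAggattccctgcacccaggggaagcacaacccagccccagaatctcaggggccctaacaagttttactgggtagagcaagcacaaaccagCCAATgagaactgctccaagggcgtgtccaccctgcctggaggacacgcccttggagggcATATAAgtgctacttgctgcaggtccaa
Hbb-bs: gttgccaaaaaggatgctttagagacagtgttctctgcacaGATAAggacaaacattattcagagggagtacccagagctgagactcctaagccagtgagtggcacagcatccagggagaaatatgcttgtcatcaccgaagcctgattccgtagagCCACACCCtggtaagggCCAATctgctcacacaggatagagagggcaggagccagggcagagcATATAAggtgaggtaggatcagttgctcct
Hbb-bt: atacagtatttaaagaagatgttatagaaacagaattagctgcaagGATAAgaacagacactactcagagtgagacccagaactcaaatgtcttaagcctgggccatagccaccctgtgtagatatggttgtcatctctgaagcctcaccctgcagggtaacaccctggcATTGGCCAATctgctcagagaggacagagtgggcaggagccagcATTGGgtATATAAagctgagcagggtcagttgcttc
Alas2: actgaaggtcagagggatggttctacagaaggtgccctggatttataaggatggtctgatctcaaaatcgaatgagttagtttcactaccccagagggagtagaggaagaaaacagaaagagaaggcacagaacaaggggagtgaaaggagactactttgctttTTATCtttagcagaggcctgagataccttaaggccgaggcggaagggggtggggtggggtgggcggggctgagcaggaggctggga
GATAA, the core read by GATA factors, was found in each of these windows, with its leftmost base at -182 in Hba-a1, -209 in Hbb-bs, -204 in Hbb-bt and -86 in Alas2, where it is on the opposite strand and -1 is the base before the start. It occurs in 22.6% of all 32851 promoters of the table cut to the same length. CCACACCC, a site type read by KLF1, was found in Hbb-bs alone (-93) and in 3.2% of promoters. CCAAT was found in the 3 globin windows and in 33.8% of promoters, and ATATAA, which resembles the TATA box, in the same 3 and in 9.1%. ACGTG, a form of the core of the hypoxia response element, is not in these windows and is in 16.6% of promoters. The other form of that core, GCGTG, was not part of the search. It can be read on both strands of the Hba-a1 window, and its share among all promoters was not counted. The window of Hba-a2 shares a run of 247 bases with that of Hba-a1, while the longest run shared by Hbb-bs and Hbb-bt is 14 bases.

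The red cell list as reported holds 8 genes, of which 5 passed the filter on low counts. Besides the 4 globins this was Alas2, the first enzyme of haem synthesis in red cell precursors. Alas2 was at 1.33, 0.754 and 0.833 CPM in MC and at 6.46, 7.89 and 3.44 CPM in MI. All 3 MI values were above all MC values, and the log2 difference was 2.61 (SE 0.41), but edgeR did not call the gene (adjusted p = 0.149). DESeq2 did (adjusted p = 3.89e-07), as did edgeR without MI3 and with the replicate number as a block. The median log2 difference of the 5 tested genes was 2.52, which is the value of Hba-a1, against 0.02 for all genes tested. Since 4 of the 5 are the called globins, a high median was set by the calls. The median was 2.42 without MI1 and 2.65 without MI3.

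The 3 untested members had at most 6 counts in any ambient library. Slc4a1, the band 3 anion exchanger of the red cell membrane, had 3, 3 and 1 counts in MC and 5, 6 and 0 in MI. Ahsp, the chaperone of free α-globin, and Epb42, a membrane skeleton protein, each had 0 counts in MC and 1, 1 and 0 in MI. At this depth no difference between MC and MI can be read from these genes. In the HI tumours Slc4a1 had 108, 25 and 19 counts, against 6, 13 and 6 in HC. Embryonic globins Hba-x, Hbb-y and Hbb-bh1 and the hormone gene Epo had 0 counts in all 12 libraries.

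A further list of 31 genes of red cell maturation was drawn up after values had been seen. Of these, 20 were tested, none was called, 11 were above 0, and the median log2 difference was 0.11, which was 0.03 without MI1 and 0.03 without MI3. Bpgm, which makes 2,3-bisphosphoglycerate in red cells, was at -0.02 and Fech, which puts iron into haem, at -0.01 on the log2 scale. Tent5c, a poly(A) polymerase, was at 9.90, 10.1 and 12.3 CPM in MC and at 31.8, 11.8 and 10.5 CPM in MI, so that its log2 difference of 0.75 (SE 0.38) came with MI1 alone standing high. Many genes of that list are also expressed outside red cells.

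**Figure D2:**
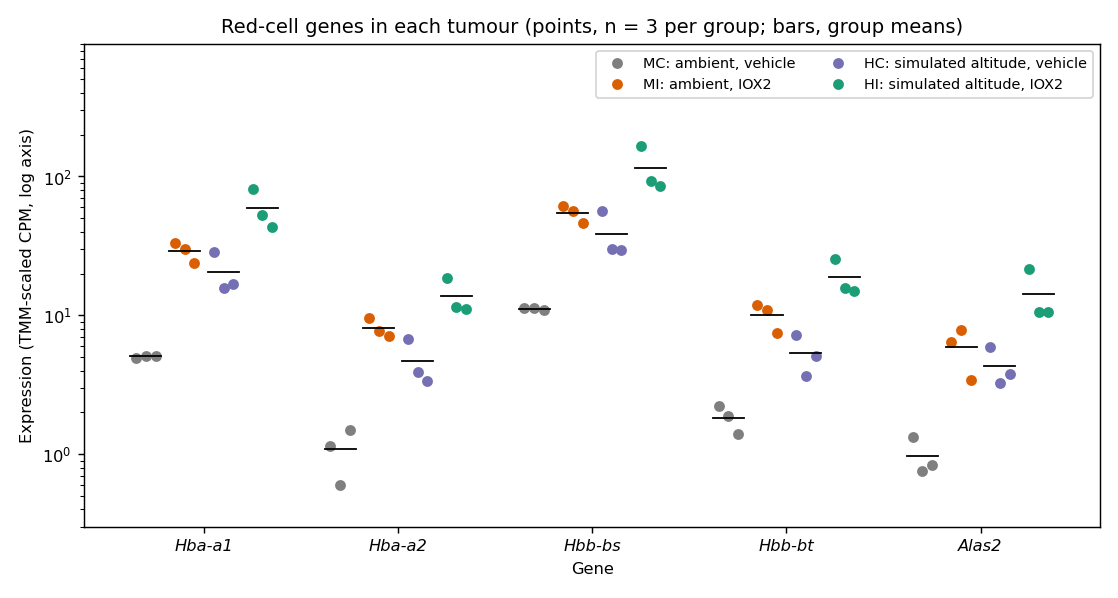
Expression of the 5 tested red cell genes in each of the 12 tumours (points; bars, group means; log axis, TMM-scaled CPM; n = 3 tumours per group). For every gene the MC points lie below the MI points, and for the 4 globins the HI points reach the highest levels, with Hbb-bs between 85.0 and 167 CPM in HI.

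The calls of the globins did not hold in every fit. Over the 12 fits that each omit 1 library of the series, the log2 change ran from 2.42 to 2.65 for Hba-a1, from 2.61 to 3.21 for Hba-a2, from 2.21 to 2.40 for Hbb-bs and from 2.31 to 2.65 for Hbb-bt. Hba-a1 was called in 7 of these fits and each of the others in 6. No gene was called without MC1, MC2, MC3, MI1 or HI2, only Hba-a1 without HC3, and 14 genes without MI2. The HC and HI libraries enter this contrast only through the shared estimates of scaling and spread. Without MI1, adjusted p was 0.102 for Hba-a1 and 0.132 for the other 3. With MI2 as the only IOX2 tumour, which is then assumed to vary like the other groups, the log2 changes were 2.57, 2.83, 2.33 and 2.58 in the same order (adjusted p = 0.281 to 0.337). Fitted to the 6 ambient libraries alone, edgeR called Hba-a1 and Hbb-bs (adjusted p = 0.00367), while limma-voom called none (smallest adjusted p = 0.144).

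**Figure D3:**
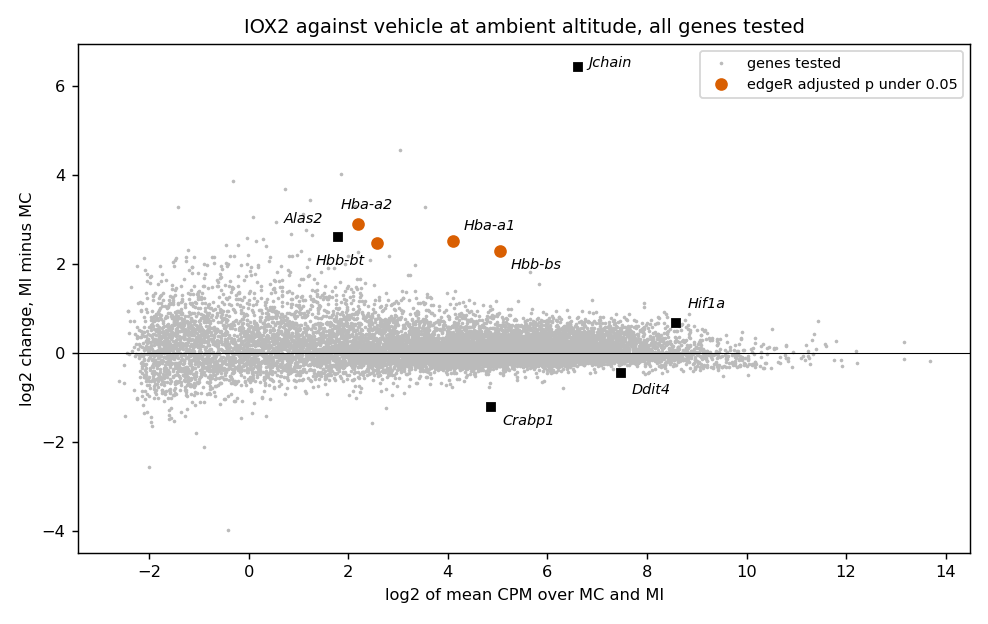
Fitted log2 change (MI minus MC) of all 14831 genes tested against the log2 of their mean CPM over the 6 ambient tumours; the called genes are marked. The 4 globins sit between 2.30 and 2.91 at low expression, apart from the bulk of genes around 0.

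Markers of platelets, vessels and neutrophils lay closer to 0 than the globins, which had been singled out as the called genes. Of 11 platelet genes, 4 were tested, with a median log2 difference of 0.30 that was 0.02 without MI1. Gp1bb, of the platelet receptor for von Willebrand factor, was lower in MI without overlap (log2 -0.34, SE 0.27), and Ppbp, a platelet chemokine, had the highest difference (log2 1.13, SE 0.87). Pf4, another platelet chemokine, was at 15.9, 12.7 and 15.8 CPM in MC and at 15.7, 13.5 and 13.1 CPM in MI (log2 -0.07, SE 0.21). The values of Pf4 overlap. The 20 endothelial genes had a median of 0.14 (0.02 without MI1), with 18 above 0 and 3 higher without overlap. The 18 neutrophil genes had one of 0.44 (0.18 without MI1), with 16 above 0 and 3 higher without overlap. Among all genes tested, 52.7% were above 0 and 5.15% were higher without overlap. No gene of these lists was called by edgeR. The part of blood content in the globin values was not tested, and in bulk tumours fewer cells of a type and less RNA per cell cannot be told apart.

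Genes of the oxygen sensing machinery itself were not called, and most lay close to 0. Of 14 genes, 13 were tested, 7 above 0 and 6 below, with a median log2 difference of 0.01 and no gene whose groups do not overlap. Over all genes, 52.7% were above 0, and 764 (5.15%) were higher in MI without overlap and 826 (5.57%) lower. Egln1, which encodes PHD2, was at 148, 171 and 161 CPM in MC and at 154, 186 and 144 CPM in MI (log2 0.01, SE 0.17). Egln2, which encodes PHD1, differed by -0.06 (SE 0.10), and Egln3, which encodes PHD3 and is itself a HIF target, by -0.16 (SE 0.22). Vhl differed by -0.20 (SE 0.11) and Hif1an, the asparagine hydroxylase FIH, by -0.18 (SE 0.10). The largest difference in the list was that of Arnt2, a partner of HIF-α, at 0.53 to 1.84 CPM in MC and 0.85 to 3.81 CPM in MI (log2 1.14, SE 0.69).

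Hif1a had 1 library far above the rest. It was at 320, 316 and 251 CPM in MC and at 435, 262 and 730 CPM in MI (log2 0.69, SE 0.28, adjusted p = 0.489). MI2 lies among the MC values, so the groups overlap. Without MI3 the difference was 0.24, and with MI2 alone it was -0.17. Epas1, which encodes HIF-2α, was at 33.8, 37.1 and 29.3 CPM in MC and at 52.5, 31.9 and 42.2 CPM in MI (log2 0.34, SE 0.21).

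HIF target genes of glycolysis were not called, and most lay slightly below 0. Of 21 genes, all tested, 5 were above 0 and 16 below, the median log2 difference was -0.09, and none was called or free of overlap. Ldha, lactate dehydrogenase A, was at 1080, 1123 and 1061 CPM in MC and at 1016, 1170 and 859 CPM in MI (log2 -0.10, SE 0.19). The MI values lie on both sides of the MC values. Pgk1, phosphoglycerate kinase, differed by -0.08 (SE 0.21), Slc2a1, the glucose transporter GLUT1, by -0.04 (SE 0.30) and Pdk1, which restrains pyruvate entry into mitochondria, by -0.23 (SE 0.19). Aldoc, an aldolase, had the smallest p of the list, with 73.5, 86.1 and 89.1 CPM in MC and 48.4, 81.2 and 56.3 CPM in MI (log2 -0.42, SE 0.21). Without MI3 the median of the list was 0.00, and without MI2 it was -0.23.

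Other HIF targets gave no common direction. Of 30 genes, 29 were tested, 15 above 0 and 14 below, with a median of 0.01 (0.07 without MI3) and none called. Vegfa, the vascular growth factor, was at 62.0, 92.5 and 53.7 CPM in MC and at 102, 84.4 and 77.5 CPM in MI (log2 0.34, SE 0.32), with overlap. Car9, carbonic anhydrase IX, was at 103, 107 and 92.8 CPM in MC and at 70.9, 128 and 68.9 CPM in MI (log2 -0.17, SE 0.28). MI1 and MI3 lie below all MC libraries and MI2 above them, and MI2 was likewise the highest MI library for Bnip3, a mitophagy receptor (log2 -0.07, SE 0.24), and for P4ha1, a collagen prolyl hydroxylase (log2 -0.08, SE 0.16). Ankrd37, a HIF target of little known function, was at 10.1, 15.7 and 12.4 CPM in MC and at 7.88, 10.6 and 5.34 CPM in MI (log2 -0.68, SE 0.33). Adm, adrenomedullin, differed by -0.21 (SE 0.39).

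In the same list, 2 of the 29 tested genes were higher in MI without overlap and 1 lower, none of them called. These counts are near the shares among all genes tested, 5.15% higher and 5.57% lower. Angptl4, a secreted lipase inhibitor, was at 24.5, 21.6 and 19.3 CPM in MC and at 44.8, 31.1 and 30.9 CPM in MI (log2 0.71, SE 0.28). Plod2, a collagen lysyl hydroxylase, was at 93.6, 89.4 and 68.6 CPM in MC and at 106, 99.9 and 139 CPM in MI (log2 0.46, SE 0.19). Both were higher in every IOX2 tumour, with adjusted p = 0.489. Ddit4, also called REDD1, an inhibitor of mTORC1, was lower in every one, at 186, 217 and 215 CPM in MC and 142, 167 and 147 CPM in MI (log2 -0.44, SE 0.10, adjusted p = 0.489). Lox, lysyl oxidase, was at 187, 176 and 121 CPM in MC and at 382, 165 and 441 CPM in MI (log2 1.03, SE 0.34), where MI2 falls within the MC range.

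**Figure D4:**
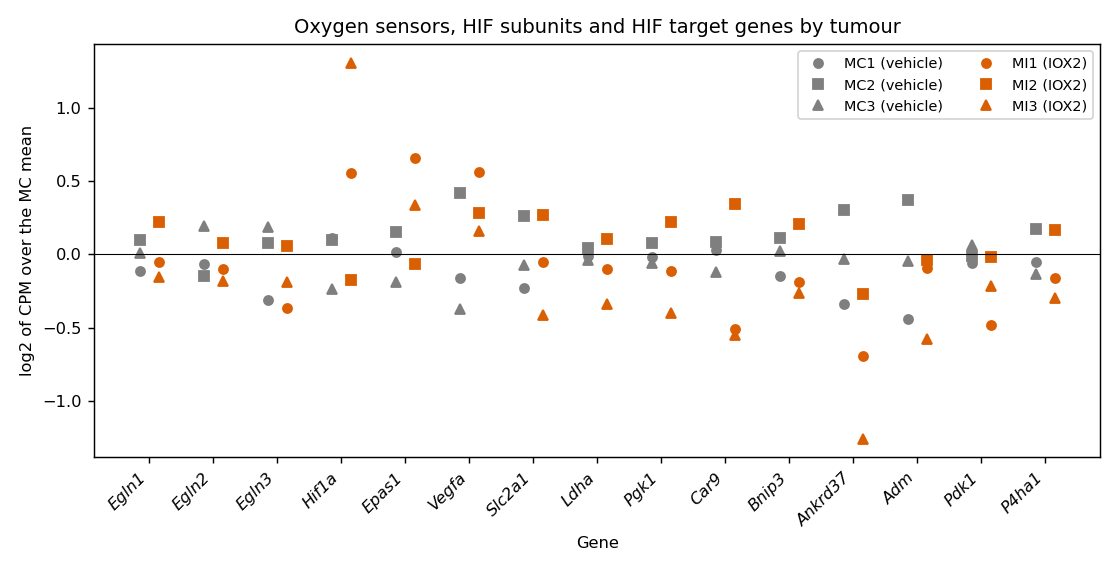
Expression of the oxygen sensors, the HIF subunits and HIF target genes in each ambient tumour as the log2 of CPM over the MC mean (points; 3 MC and 3 MI tumours). MI points fall on both sides of 0 for most genes, and the MI3 point of Hif1a is the one far above the rest.

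Other enzymes that need iron and 2-oxoglutarate, like PHD2, had no called gene. The 22 histone demethylases had a median log2 difference of -0.01 (11 above 0 and 11 below), which was 0.04 without MI1. The 12 DNA and RNA demethylases had one of -0.08 (3 above), or -0.03 without MI1, and the 13 collagen and other protein hydroxylases one of 0.09 (10 above), or 0.05 without MI1. Kdm7a, a histone H3 lysine demethylase, was at 38.4 to 41.7 CPM in MC and at 51.5, 34.2 and 94.0 CPM in MI (log2 0.60, SE 0.28), again with MI3 highest. Fto, an RNA demethylase, differed by -0.18 (SE 0.09). Of the 12 DNA and RNA demethylases, 2 were lower without overlap, against 5.57% of all genes tested. Of the 13 collagen and other protein hydroxylases, 2 were higher without overlap, against 5.15% of all genes. Of the 22 histone demethylases, 0 were free of overlap.

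Genes of iron handling and ferroptosis, a cell death by lipid peroxidation that depends on iron, were not called. The 22 tested iron genes had a median of 0.09, which was 0.06 without MI1 and 0.02 without MI3. Among them 1 was higher without overlap, a share no greater than the 5.15% of all genes. This was Steap4, an iron reductase, at 15.2, 17.5 and 11.0 CPM in MC and 35.4, 18.5 and 25.4 CPM in MI (log2 0.86, SE 0.37). Fbxl5 and Ireb2, which control and carry the iron-responsive switch of mRNA, differed by 0.56 (SE 0.22) and 0.59 (SE 0.26), with MI2 inside the MC range for both. The 20 ferroptosis brakes had a median of -0.04 (-0.06 without MI1) and the 21 tested drivers one of 0.05 (-0.03 without MI1). Gpx4, which reduces lipid peroxides, was at 224 to 294 CPM in MC and 216 to 253 CPM in MI (log2 -0.19, SE 0.10). Gch1, which makes tetrahydrobiopterin, was higher without overlap, at 9.98, 10.03 and 9.76 CPM in MC and 12.03, 12.1 and 11.6 CPM in MI (log2 0.26, SE 0.10). Acsl4, a lipid enzyme that promotes ferroptosis, was at 1046 CPM in MI3 and at 432 to 554 CPM in the other 5 (log2 0.44, SE 0.25).

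The nuclear genes of the respiratory chain and those of the cytosolic ribosome were all below 0 by a small amount, with none called. All 23 respiratory chain genes were below 0, with a median of -0.17, and 9 of them were lower without overlap. Among all genes tested, 5.57% were lower without overlap. Ndufb8, a subunit of complex I, was at 74.6, 74.2 and 85.8 CPM in MC and at 64.6, 68.2 and 64.2 CPM in MI (log2 -0.25, SE 0.08). Cox5b, a subunit of cytochrome oxidase, differed by -0.28 (SE 0.09). All 24 ribosomal protein genes were below 0, with a median of -0.25, and 5 were lower without overlap. Rps27 was at 335, 347 and 418 CPM in MC and at 261, 325 and 287 CPM in MI (log2 -0.33, SE 0.11). The medians without MI1 were -0.17 and -0.19, and those without MI3 -0.13 and -0.25. MC3 had the highest score of the ambient libraries in both lists. For the respiratory chain the scores were 0.00, 0.04 and 0.22 in MC1 to MC3 and -0.11, -0.01 and -0.14 in MI1 to MI3. For the ribosome they were -0.03, 0.06 and 0.36 in MC and -0.26, 0.02 and -0.15 in MI. The part of MC3 in these differences was not tested.

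Gene length moved with these values. When the genes tested were split into 5 near-equal groups by length, the median log2 difference was -0.08 in the shortest group (median length 1298 bases), then -0.01, 0.02, 0.05, and 0.11 in the longest (median 9133 bases). Relative to the mean of the MC libraries, MI3 ran from -0.16 in the shortest genes to 0.19 in the longest, while MI2 ran from -0.03 to 0.01. The part of length in the lower values of the short ribosomal and respiratory genes was not tested. The 13 genes of the mitochondrial genome had a median of 0.27, which was 0.02 without MI3. ND2, a complex I subunit encoded there, was at 6190 CPM in MI3 and at 1371 to 2773 CPM in the other 5.

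T cell and NK cell markers lay above 0 in MI, most of all in MI1. All 22 tested genes of the T cell and NK cell list were above 0, with a median of 0.77, none was called by edgeR, and the median was 0.21 without MI1. Their transcripts summed to 116 to 119 CPM in MC and to 292, 178 and 130 CPM in MI1 to MI3. Ctla4, an inhibitory T cell receptor, was at 0.802, 0.981 and 0.732 CPM in MC and at 2.59, 2.43 and 1.99 CPM in MI (log2 1.48, SE 0.30). DESeq2 called Ctla4. Ifng, interferon-γ, was at 1.10, 1.03 and 0.959 CPM in MC and at 2.42, 2.40 and 1.65 CPM in MI (log2 1.06, SE 0.26). For both genes each MI library was above each MC library, and the adjusted p from edgeR was 0.489 or more. In all, 6 of the 22 were higher without overlap, against 5.15% of all genes tested, of which 52.7% were above 0. Cd8a, of cytotoxic T cells, was at 10.4 to 14.5 CPM in MC and at 30.7, 22.8 and 14.8 CPM in MI (log2 0.87, SE 0.26).

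B cell genes were high in MI1 alone, and the plasma cell list also scored highest there. Cd79b, a chain of the B cell receptor, was at 22.8 CPM in MI1 and at 0.478 to 1.21 CPM in the other 5. Jchain, which joins secreted antibodies, was at 559 CPM in MI1, 17.7 CPM in MI3 and 0.978 to 4.07 CPM in the other 4, and with a log2 difference of 6.43 (SE 1.61) it was not called by edgeR (adjusted p = 0.489) but was called by DESeq2. The median of the 5 tested B cell genes was 2.58, and -0.32 without MI1. The 7 tested plasma cell genes had a median of 0.23, which was 0.16 without MI1. Of these 7, 5 were above 0 and 1 was lower without overlap, against 52.7% and 5.57% of all genes tested. Ccl21a, a chemokine of lymphatic vessels and lymph nodes, was at 58.9 CPM in MI1 and at most 5.77 CPM elsewhere. The muscle and fat lists also scored highest in MI1, at 2.15 and 1.38. The fat score was above that of every MC library (-1.13 to -0.13) in MI2 (0.20) and MI3 (0.10) as well. All 12 tested fat genes were above 0, with a median of 1.30 that was 0.65 without MI1, and none was called. Of these, 5 were higher without overlap, against 5.15% of all genes. The muscle median was 0.94, and -0.60 without MI1. Myh4, a fast myosin, was at 65.9 CPM in MI1, 21.1 CPM in MC1 and 0.51 CPM in MI2. The part of tissue next to the tumour in the MI1 values was not tested.

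Interferon-stimulated and inflammatory genes were higher in part without overlap, none called. Among all genes tested, 52.7% were above 0 and 5.15% were higher without overlap. Of 23 type I interferon genes, 21 were above 0 (median 0.23, and 0.10 without MI1) and 3 were higher without overlap. Ifit1 was at 39.5, 33.0 and 30.7 CPM in MC and at 57.2, 41.7 and 45.3 CPM in MI (log2 0.48, SE 0.16). Of 20 genes of interferon-γ and MHC class I, 17 were above 0 (median 0.16) and 6 did not overlap. They included Cxcl9, a chemokine for T cells, at 131, 126 and 93.9 CPM in MC and 258, 168 and 216 CPM in MI (log2 0.87, SE 0.31). Of 23 inflammation genes, 20 were above 0, with a median of 0.38 that was 0.37 without MI1 and 0.41 without MI3. Cxcl3, a neutrophil chemokine, was at 1.33, 3.52 and 2.45 CPM in MC and at 9.92, 5.46 and 4.53 CPM in MI (log2 1.45, SE 0.58). Nos2, the inducible nitric oxide synthase, was at 60.5, 115 and 41.2 CPM in MC and at 228, 126 and 143 CPM in MI (log2 1.20, SE 0.57).

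Among other groups, 4 of 18 immediate-early genes were higher without overlap and 1 was lower, against 5.15% and 5.57% of all genes. The lowest p was that of Fos, a part of the AP-1 factor, at 26.3, 23.3 and 22.9 CPM in MC and 31.98, 32.5 and 43.1 CPM in MI (log2 0.57, SE 0.13). Of 19 genes of matrix proteases and their inhibitors, 3 were higher and 3 lower without overlap. Timp3, an inhibitor of matrix proteases, was at 77.7, 92.0 and 65.6 CPM in MC and at 182, 106 and 161 CPM in MI (log2 0.93, SE 0.23). Every MI value of Fos and Timp3 was above every MC value, yet neither was called. Timp2, another such inhibitor, was lower, at 617, 621 and 648 CPM in MC and 562, 573 and 531 CPM in MI (log2 -0.18, SE 0.07). The collagen list was above 0 in 21 of 22 genes (median 0.22, and 0.06 without MI1), the pericyte list in 13 of 13 (median 0.39, and 0.16 without MI1) and the cell division list in 27 of 32 (median 0.17, and 0.09 without MI1). MC3 had the lowest score of the ambient libraries in the collagen (-0.38), pericyte (-0.32) and cell division (-0.42) lists, and its part in their differences was not tested. Of the 16 epithelial genes of 4T1, 13 were below 0, with a median of -0.13 that was -0.06 without MI1. Their score was 0.10 to 0.20 in the MC and -0.18 to -0.14 in the MI libraries. Of the 16, only 1 was lower without overlap. This was Krt5, at 2.08, 1.33 and 0.807 CPM in MC and at 0.229, 0 and 0.0289 CPM in MI. Krt5 counts in the score and had the lowest log2 difference of the list (-3.97), and its part in the score was not tested. In the HI tumours its level spanned 0.0992 to 12.5 CPM. Most values of Krt5 are low and uneven within groups. No member of these lists was called by edgeR.

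No gene was called lower by edgeR, while DESeq2 called 2, among them Nadsyn1. The 12 genes with the smallest p among those lower without overlap, counting only genes that averaged 5 CPM or more in MC, all had an adjusted p of 0.489 with edgeR. They were Nadsyn1, Ddit4, Tomm7, Thra, Rras, Cirbp, Rpl35a, Rpl26, Crabp1, Supt3, Ndufa6 and Atpif1, with log2 differences from -0.28 to -1.21. Crabp1, a retinoic acid binding protein, had the largest difference, at 44.4, 31.7 and 46.4 CPM in MC and 12.9, 15.98 and 24.3 CPM in MI (log2 -1.21, SE 0.33). Cirbp, an RNA-binding protein induced by cold, was at 67.0, 60.9 and 88.3 CPM in MC and at 41.2, 55.3 and 41.4 CPM in MI (log2 -0.65, SE 0.17). Nadsyn1, the last enzyme of NAD synthesis from tryptophan or nicotinic acid, was at 14.4, 15.54 and 15.54 CPM in MC and at 10.93, 11.997 and 10.94 CPM in MI (log2 -0.43, SE 0.10).

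IOX2 was also set against vehicle at simulated altitude, in 6 other tumours. There 0 of 14831 genes were called by edgeR (0%), 732 (4.94%) had an unadjusted p under 0.05, and DESeq2 called 22. The 4 globins were higher in HI than in HC without overlap but were not called. Without overlap, 782 genes (5.27%) were higher in HI and 926 (6.24%) lower. Hba-a1 averaged 20.4 ± 7.27 CPM in HC and 59.1 ± 19.4 CPM in HI (SD, n = 3 each), against 5.06 ± 0.10 CPM in MC and 29.1 ± 4.72 CPM in MI. Hbb-bs averaged 38.7 ± 15.5 CPM in HC and 114.7 ± 45.05 CPM in HI (SD, n = 3 each), against 11.1 ± 0.25 CPM in MC and 54.8 ± 7.64 CPM in MI. For both genes the mean of HC lay between those of MC and MI, and the SD was larger in HC than in MC. The log2 differences of HI from HC were 1.54 for Hba-a1, 1.56 for Hba-a2, 1.57 for Hbb-bs and 1.82 for Hbb-bt, and 1.72 for Alas2.

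The difference between both responses was tested as an interaction, and 0 genes were called by edgeR (0%), with 1198 (8.08%) at an unadjusted p under 0.05, a smallest adjusted p of 0.607 and 31 calls by DESeq2. For the globins it was -0.99 (Hba-a1), -1.35 (Hba-a2), -0.73 (Hbb-bs) and -0.65 (Hbb-bt) on the log2 scale, none called. Interaction genes were ranked among those averaging 5 CPM or more in some group, with the same kinds of gene left out as in the lower ranking. The smallest p was that of Ddit4, which was at 163, 176 and 182 CPM in HC and at 255, 241 and 204 CPM in HI. Its log2 difference at simulated altitude was 0.43, and its interaction was 0.86 (SE 0.15, adjusted p = 0.607). Ddit4 thus did not overlap between vehicle and IOX2 at either altitude, being lower with IOX2 at ambient and higher at simulated altitude. The other 4 with the smallest p, Rnf125, Hsh2d, Phf11d and Mertk, had negative interactions of -0.76 to -1.65. Mertk, a receptor for dying cells, averaged 8.78 ± 0.92 CPM in MC, 14.8 ± 3.32 CPM in MI, 21.3 ± 6.65 CPM in HC and 11.4 ± 1.86 CPM in HI (SD, n = 3 each). Over the 14831 genes, which are not independent, the log2 differences at each altitude had a Pearson r of -0.14 and a Spearman rho of -0.12, from tumours that the 2 contrasts do not share.

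**Figure D5:**
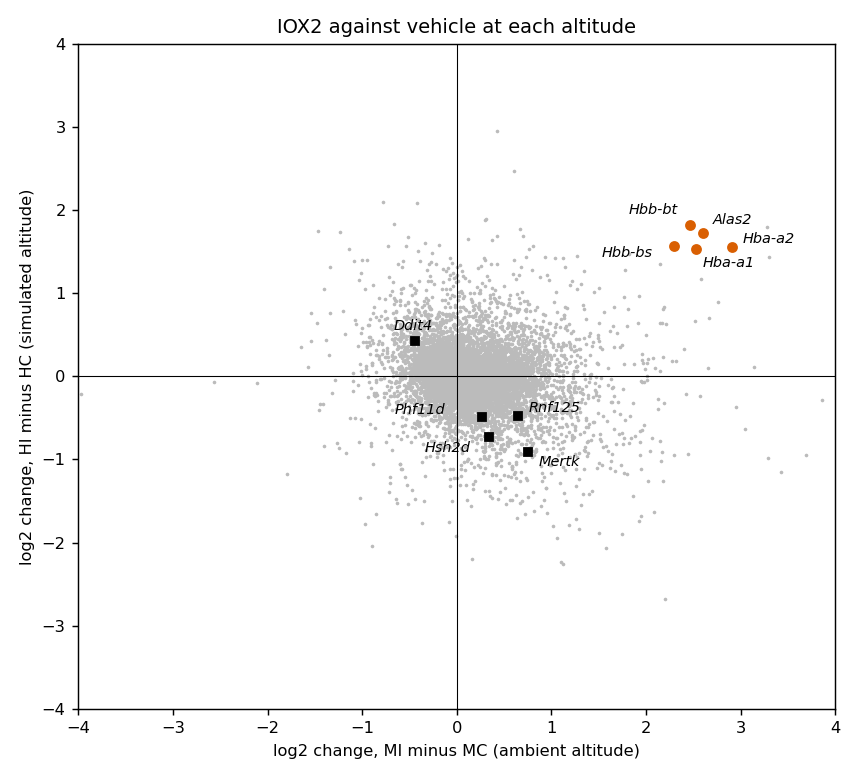
Log2 difference of IOX2 from vehicle at ambient (x axis) and simulated altitude (y axis) for each gene tested, with the red cell genes and other named genes labelled; 3 genes lie outside the plotted range. The globins are positive on both axes, and Ddit4 is negative at ambient and positive at simulated altitude.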

How the data were processed

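Per the labels, RNA of whole tumours was sequenced as paired 150-base reads. Build GRCm39 is named in the submitters' processing notes, along with HISAT2 2.1.0, fastp 0.20.1, HTSeq 0.11.2, R 3.5.1 and DESeq2 1.22.2. The role of each tool, the strandedness and the annotation are not given there or in the labels. The authors deposited raw counts per gene and FPKM values for the same genes. Groups were taken from the labels. Counts were fitted with edgeR 4.0.16 (TMM, quasi-likelihood, 1 mean per group, 12 libraries) in R 4.3.3, with Benjamini-Hochberg adjustment at 0.05, a prior count of 2 for log2 values per library, and DESeq2 1.42.0, limma 3.58.1 and the log2 of FPKM plus 1 or 0.1 as alternatives. Detection floors cover counting error only. With 3 tumours against 3, an exact permutation test of 1 gene cannot go below p = 0.1. Members of the comparison and the 49 gene lists (793 of 856 entries tested) were chosen with earlier results of these data known. A pair of red cell markers is not reported here and was left out of the lists. Named genes were the called genes, the 12 lower genes of smallest p, 15 fixed HIF genes, the 5 smallest interaction p-values and, per list, the smallest p-values and the members with 1 library standing out; Bpgm, Fech and the genes of untested red cell members were chosen after their values were seen. Mitochondrial and 2 other symbols were matched through 15 aliases. BALB/c carries another β-globin haplotype than the C57BL/6J reference, so the split of reads between Hbb-bs and Hbb-bt is uncertain.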

Additional observations from a re-analysis of the deposited data

How the results depend on the processing

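With edgeR, the count of 4 called genes in the ambient comparison was the same with DESeq2's size factors, with 3 other filters on low values and with limma on log2(FPKM + 1) or log2(FPKM + 0.1). The DESeq2 Wald test called 18 genes (16 higher and 2 lower), limma-voom 0, edgeR on the 6 ambient libraries alone 2, and edgeR with globin copies summed 2. Leaving out 1 library at a time gave 0 to 14 calls, and leaving out MI1 and MI3 together gave 0. The summed copies and the omission of that pair of libraries were added after seeing the data. At simulated altitude, where 0 genes were called, the DESeq2 Wald test called 22. The interaction, with 0 calls, had 31 by that test, and 0 to 2 when 1 library was left out. Fitting the replicate number as a block gave 5 calls in the ambient comparison, with Alas2 beside the 4 globins, and 3 at simulated altitude, against 0 for the interaction. Deviations of same-numbered libraries from their group means correlated at 0.33, -0.11 and -0.13 between MC and MI. Between HC and HI they correlated at -0.01, -0.12 and 0.23. MC3 and MI2, which differ in number, correlated at 0.47. Within a group of 3 the deviations are tied to each other, so these values cannot decide whether the numbers pair the samples. Log2 differences near 0 turned sign in some fits. With 1 library left out, the lowest and highest values were -0.12 and 0.09 for Egln1, -0.15 and 0.04 for Egln2, -0.29 and -0.05 for Egln3, 0.24 and 0.96 for Hif1a, 0.15 and 0.49 for Epas1, -0.23 and 0.12 for Slc2a1, -0.23 and 0.0078 for Ldha, -0.26 and 0.06 for Pgk1, -0.54 and -0.02 for Car9, -0.24 and 0.02 for Bnip3, -0.39 and 0.00397 for Adm, and -0.24 and 0.01 for P4ha1. Egln1 was at -0.028 with limma on log2(FPKM + 1) and at -0.029 on log2(FPKM + 0.1). With MI2 as the only IOX2 library, Egln2 was at 0.077, Egln3 at 0.057, Hif1a at -0.17, Epas1 at -0.064, Slc2a1 at 0.27, Ldha at 0.10, Pgk1 at 0.22, Car9 at 0.35, Bnip3 at 0.21 and P4ha1 at 0.17. None of these was called in any of these fits, and the cause of the changes of sign was not tested. The filter on low counts left 14831 of 22819 genes with any ambient count, so most B cell and platelet markers were not tested.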
